A study of Mus musculus with 6 samples.

Results

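The genes described here are the nuclear receptors of retinoic acid (*Rara*, *Rarb* and *Rarg*), the proteins that carry retinol and retinoic acid or take retinol up (*Rbp4*, *Crabp1*, *Crabp2* and *Stra6*) and the enzymes that degrade retinoic acid (*Cyp26a1* and *Cyp26b1*). These 9 genes were chosen by name, with earlier results of these data known. Their probes were found through the RefSeq accessions in the scanner output, which name 22911 genes in all. A probe was found for 8 of the 9 and none for *Crabp2*, which was not analyzed here. Of the 8 genes with a probe, 6 were bright enough to be tested. *Rbp4* and *Cyp26a1* were not well above background on any array with background flags.

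RNA expression was compared between WT cells (labeled OS3-vector; n = 3) and IG27 cells (labeled OS3-H3F3A_K27M; n = 3). Both are OS3 cells, an SV40-immortalized line of brain glial cells, which the labels give as male and C3H and the study's methods as derived from C3H/HeN newborns. WT cells carry the empty vector, and IG27 cells were transfected with a pcDNA3.1(+)-H3f3a-K27M plasmid, which encodes histone H3.3 with methionine in place of lysine at residue 27. Clones were obtained by drug selection, and the labels do not say which clone or clones were put on the arrays, so a difference between clones and a difference made by the mutant histone cannot be told apart. Both groups grew for 2 days in MEM-α with fetal bovine serum and insulin, without a stated addition of retinoids. Each sample is RNA from 1 dish, so that the spread between replicates is that between dishes. Whether the dishes of a group held the same clone is not stated.

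Each sample was labeled with Cy3 and read on 1 single-color Agilent mouse array. Levels are given as normalized log2 intensity, that is the processed signal on a log2 scale relative to the array's 75th percentile, so that a difference of 1 is a 2-fold change and 0 is the brightness of the 75th percentile. Between 58.8% and 61.2% of 56605 probes were well above background on the 5 arrays whose scanner output is whole, and saturated spots were not found. For IG27 replicate 2 only 285 spots of scanner output were usable, so its values came from the deposited value table and it carries no background flag. Positions on the slide were read from the names given to the scanner output. These put WT replicates 1 and 3 in one of 2 rows of arrays. WT replicate 2 and all IG27 replicates were in the other. Glial markers were present, with 5 of 6 astrocyte genes well above background in each group and a summed level of 95.8 to 106 in WT and 55.1 to 63.4 in IG27 cells, in multiples of the 75th percentile. Single genes carried some of these sums. *Gfap* made up most of the astrocyte sum and was lower in IG27 cells (log2 fold change -1.07), as were *Aldh1l1* (-1.72) and *Slc1a2* (-1.03). *S100b* was 30.5-fold and *Slc1a3* at least 20.6-fold higher, and *Aqp4* was not called. Of the oligodendrocyte lineage 6 of 7 genes were above background in WT and 7 of 7 in IG27 cells (sums of 73.4 to 75.6 and of 74.5 to 77.1). Of other cell types, neuronal genes summed to 17.5 to 19.9 in WT and 6.68 to 7.42 in IG27 cells (4 genes, with *Rbfox3* and *Syt1* not above background), microglial genes to 12 to 12.5 and 12.3 to 12.7 (5 genes, *Cx3cr1* not above), endothelial genes to 0.168 to 0.187 and 2.60 to 2.66 (4 genes, *Cdh5* and *Cldn5* not above), and fibroblast and pericyte genes to 126 to 129 and 64.3 to 69.6 (5 genes, *Col1a2* and *Lum* not above). The endothelial rise was that of *Kdr*, at background in WT cells and at least 135-fold higher in IG27 cells, with *Pecam1* lower (log2 fold change -0.27). Of the last list *Col1a1* and *Pdgfrb* were lower (-0.92 and -1.16), and *Dcn* was at least 3.32-fold higher. The part of these markers in the results that follow was not tested, and in such bulk samples fewer cells that express a gene and less RNA per cell cannot be told apart. *H3f3a*, the gene of the transfected histone, was called lower in IG27 cells, with a log2 fold change of -0.26 for the brightest of its probes (adjusted p = 0.0237 in limma). Its other probes gave 0.17 and -0.20 and were not called (adjusted p over all probes = 0.104 and 0.297 in limma), and whether its probes read the plasmid's RNA is not known.

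Retinoic acid is made inside cells from retinol, which travels in blood on RBP4 and enters cells through the membrane receptor STRA6. In the cytosol CRABP1 and CRABP2 bind retinoic acid, and the CYP26 enzymes hydroxylate it for removal. In the nucleus the receptors RARα, RARβ and RARγ pair with the retinoid X receptors on response elements of DNA and turn from repression to activation of transcription when retinoic acid binds. *Rarb* and *Cyp26a1* are themselves classical targets of retinoic acid. In the nervous system the pathway is known for patterning the hindbrain and spinal cord and for neuronal differentiation.

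The receptors recognize pairs of short half-sites, and the pair with 5 bases between (a direct repeat called DR5) is the element described for *Rarb* and *Cyp26a1*. The promoters of these genes are shown because a DR5 was found in them and in no other promoter of the 8 members with an entry. Both are RefSeq sequences of the GRCm38.p6 assembly from 250 bases before to 50 bases after the transcription start, written 5′ to 3′ on the strand of the gene, with the half-sites of the DR5 in capitals. The *Rarb* promoter is chr14:16575427-16575726 on the minus strand and the *Cyp26a1* promoter chr19:37697558-37697857 on the plus strand.
Rarb: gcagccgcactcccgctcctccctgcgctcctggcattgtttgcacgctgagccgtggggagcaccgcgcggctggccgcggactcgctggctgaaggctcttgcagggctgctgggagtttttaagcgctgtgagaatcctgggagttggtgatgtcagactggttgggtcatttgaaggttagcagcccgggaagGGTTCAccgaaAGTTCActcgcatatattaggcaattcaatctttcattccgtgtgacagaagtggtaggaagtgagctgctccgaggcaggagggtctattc
Cyp26a1: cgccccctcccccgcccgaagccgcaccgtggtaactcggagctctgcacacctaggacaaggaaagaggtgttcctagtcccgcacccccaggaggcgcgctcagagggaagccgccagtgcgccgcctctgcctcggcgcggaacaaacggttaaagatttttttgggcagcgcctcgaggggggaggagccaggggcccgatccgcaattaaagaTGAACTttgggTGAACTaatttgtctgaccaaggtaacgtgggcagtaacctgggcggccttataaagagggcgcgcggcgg
The DR5 of *Rarb* lies from 53 bases before the start site onward and reads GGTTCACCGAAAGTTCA on the strand of the gene. That of *Cyp26a1* lies from 32 bases before the start site onward and reads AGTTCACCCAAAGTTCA on the opposite strand. The half-sites searched, on both strands, were AGGTCA with its variant AGTTCA, then GGGTCA with its variant GGTTCA, and a DR5 was any of them, NNNNN and any of them again, so that each DR5 also counts as half-sites. A DR5 was present in 0.0974% of 32851 mouse promoters of this length, whereas a single half-site was present in 43.7%. The repeats with 1 or 2 bases between the half-sites were in 0.222% and 0.268% of all promoters and in no promoter of the members. The *Crabp1* and *Cyp26b1* promoters held no half-site. Of 31 genes with a DR5 in a promoter, 4 were tested, and their log2 fold changes in IG27 over WT cells ran from -0.53 to 0.17.

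Of the 6 genes tested, 3 were higher in IG27 cells (*Stra6*, *Rarg* and *Rara*), 2 were lower (*Crabp1* and *Cyp26b1*) and *Rarb* did not pass the test. The level of *Crabp1* fell to background. These counts stand against a background in which most genes differed between the groups. Of 14897 genes tested, 70.5% were called at an adjusted p under 0.05 in limma, 30.5% higher and 40.0% lower in IG27 cells, so that 5 of 6 members called is near the share of all genes. The groups did not overlap in 6 of 6 members and in 75.7% of all genes. A called change of at least 2-fold was found in 4 of the 6 (*Crabp1*, *Stra6*, *Cyp26b1* and *Rarg*) and in 23.1% of all genes. The median log2 fold change of the 6 was 0.52 and that of all genes -0.07.

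**Figure D1:**
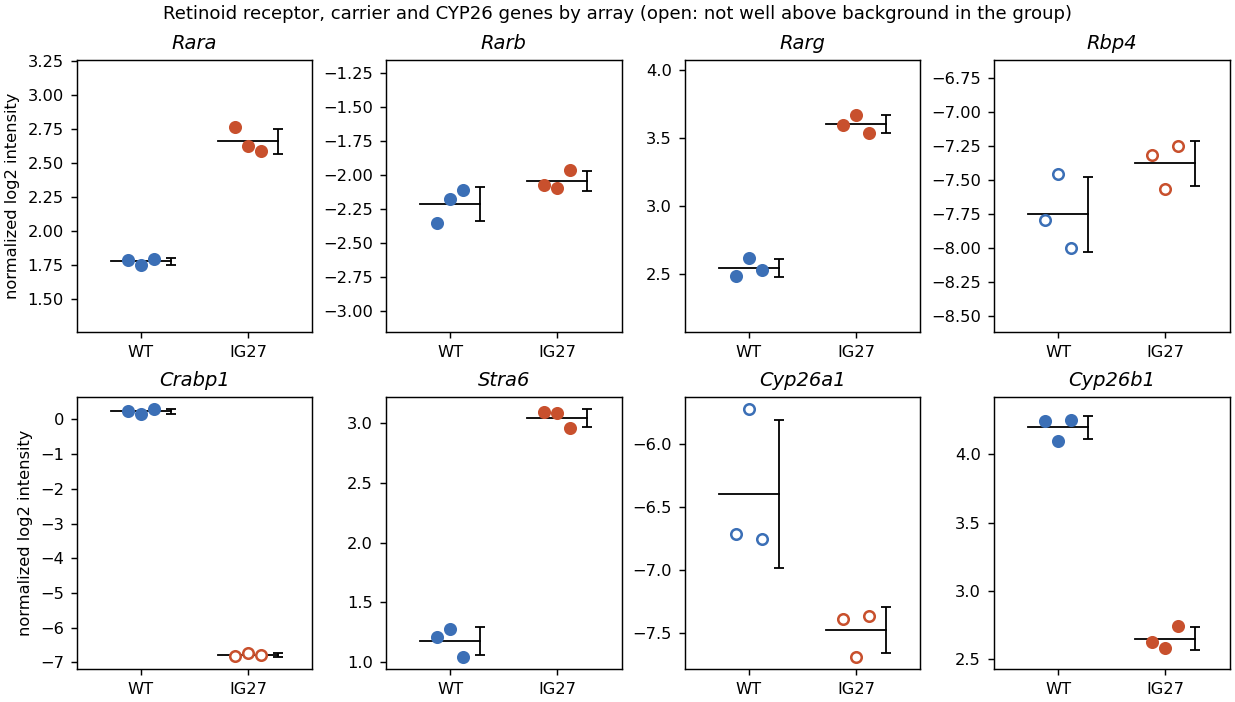
Normalized log2 intensity of the brightest probe of 8 genes on each array of WT and IG27 cells; points are arrays, lines are the mean of 3 arrays and bars the SD, and open points mark groups not well above background. Axes differ between panels: *Crabp1* sits near 0.23 in WT cells and at the background near -6.78 in IG27 cells, while the receptors *Rara* and *Rarg* differ by about 1 and *Rarb* by 0.17.

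Among the receptors, *Rarg* and *Rara* were higher in IG27 cells, and for *Rarb* the groups lay close together. RARγ is the receptor best known from skin, cartilage and undifferentiated cells. The probe of *Rarg* gave normalized log2 intensities of 2.48, 2.62 and 2.53 in WT and of 3.60, 3.67 and 3.54 in IG27 replicates 1 to 3. All 3 IG27 arrays were above all 3 WT arrays, and the mean rose from 2.55 ± 0.07 to 3.60 ± 0.07 (SD, n = 3 each). This was a 2.08-fold increase (log2 fold change 1.06, SE 0.06, 95% CI 1.88 to 2.30-fold, adjusted p = 1.49e-05 in limma).

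*Rara*, the receptor expressed in most tissues, had 2 probes, which match the same RefSeq transcript. The brighter gave 1.79, 1.75 and 1.80 in WT and 2.76, 2.63 and 2.59 in IG27 cells, which is 1.78 ± 0.02 against 2.66 ± 0.09 (SD, n = 3 each). The IG27 arrays were again all above the WT arrays, and the difference was 1.84-fold (log2 fold change 0.88, SE 0.06, 95% CI 1.66 to 2.04-fold, adjusted p = 3.24e-05 in limma). The second probe gave 0.00, -0.18 and 0.03 in WT and 0.26, 0.32 and 0.36 in IG27 cells, a smaller difference in the same direction (log2 fold change 0.36, SE 0.08, 95% CI 0.17 to 0.55, adjusted p over all probes = 0.00683 in limma, where 64.2% of 34058 probes were called). The probes of *Rara* therefore showed the same sign, with intervals of the difference that did not overlap.

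*Rarb*, the receptor gene with the DR5 shown above, gave -2.35, -2.18 and -2.11 in WT and -2.08, -2.10 and -1.96 in IG27 cells. The lowest IG27 array lay just above the highest WT array, at -2.10 against -2.11. The mean went from -2.21 ± 0.12 to -2.05 ± 0.07 (SD, n = 3 each), a log2 difference of 0.17 whose 95% interval ran from -0.02 to 0.36 (adjusted p = 0.1 in limma). A larger increase than 1.28-fold lies outside this interval, as does a decrease beyond 0.984-fold. The second *Rarb* probe, which matches another transcript of the gene, gave -3.50, -3.30 and -3.44 in WT and -3.55, -3.37 and -3.54 in IG27 cells. Here the groups overlapped, with a log2 difference of -0.07 (95% CI -0.27 to 0.13, adjusted p over all probes = 0.486 in limma). The third probe was above background on 2 of 3 WT arrays and 1 of 2 flagged IG27 arrays and was not tested.

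Among the 6 genes tested, the carrier *Crabp1* and the uptake receptor *Stra6* had the largest log2 fold changes. CRABP1 is a small cytosolic protein that binds retinoic acid and is known from neural crest and developing hindbrain. Its brighter probe, which has 10 spots on each array, gave 0.24, 0.16 and 0.29 in WT and -6.83, -6.73 and -6.79 in IG27 cells. On the linear scale the WT arrays had processed signals of 1165 to 1267 and the IG27 arrays of 9.03 to 10.68. Well above background were 10 of 10 spots on each WT array and 0 of 10 on IG27 replicates 1 and 3. Single spots without an outlier flag ran from 1081 to 1474 over the WT arrays and from 6.06 to 16.2 over these IG27 arrays. Because the IG27 signal is at background, the difference is a bound, and *Crabp1* was at least 47.6-fold lower in IG27 cells (fitted log2 fold change -7.01, SE 0.06, adjusted p = 3.68e-08 in limma). The bound sets the WT mean against the lowest signal called well above background on IG27 replicates 1 and 3, and replicate 2, which has no flags, was given the higher of these floors.

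The second *Crabp1* probe matches another transcript and fell in the same direction. It gave -3.10, -3.23 and -3.11 in WT and -6.55, -7.68 and -7.51 in IG27 cells, with 0 of 2 flagged IG27 arrays above background. It was at least 4.58-fold lower (adjusted p over all probes = 5.74e-05 in limma), a smaller bound because its WT signal, 111 to 125, was itself nearer to the background.

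STRA6 lets retinol pass from RBP4 into the cell, and its gene was higher in IG27 cells. The normalized log2 intensities of *Stra6* were 1.21, 1.28 and 1.05 in WT and 3.09, 3.08 and 2.96 in IG27 cells. The means were 1.18 ± 0.12 and 3.04 ± 0.07 (SD, n = 3 each), with every IG27 array more than 1 log2 unit above every WT array. *Stra6* was 3.63-fold higher (log2 fold change 1.86, SE 0.08, 95% CI 3.19 to 4.14-fold, adjusted p = 3.72e-06 in limma). For *Rbp4*, the carrier of retinol in plasma, processed signals were 3.85 to 5.93 in WT and 6.0 to 6.89 in IG27 cells, with 0 of 3 WT and 0 of 2 flagged IG27 arrays above background. No fold is given for it.

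Of the degrading enzymes, *Cyp26b1*, which is known to protect brain, limb and germ cells from retinoic acid, was lower in IG27 cells. Its normalized log2 intensities were 4.25, 4.10 and 4.25 in WT and 2.62, 2.58 and 2.74 in IG27 cells. The groups were apart on all arrays, with means of 4.20 ± 0.09 and 2.65 ± 0.08 (SD, n = 3 each). *Cyp26b1* was 2.93-fold lower (log2 fold change -1.55, SE 0.07, 95% CI 2.60 to 3.30-fold, adjusted p = 5.41e-06 in limma). It was well above background in both groups, so a level remained in IG27 cells, unlike for *Crabp1*.

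*Cyp26a1*, the CYP26 gene that responds most directly to retinoic acid in many cells and whose promoter holds the other DR5, had processed signals of 9.14 to 19.8 in WT and 5.49 to 6.53 in IG27 cells. None of the 3 WT arrays and none of the 2 flagged IG27 arrays was well above background, so both groups have only an upper bound. Both members with a DR5 in the promoter shown above were thus without a call.

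**Figure D2:**
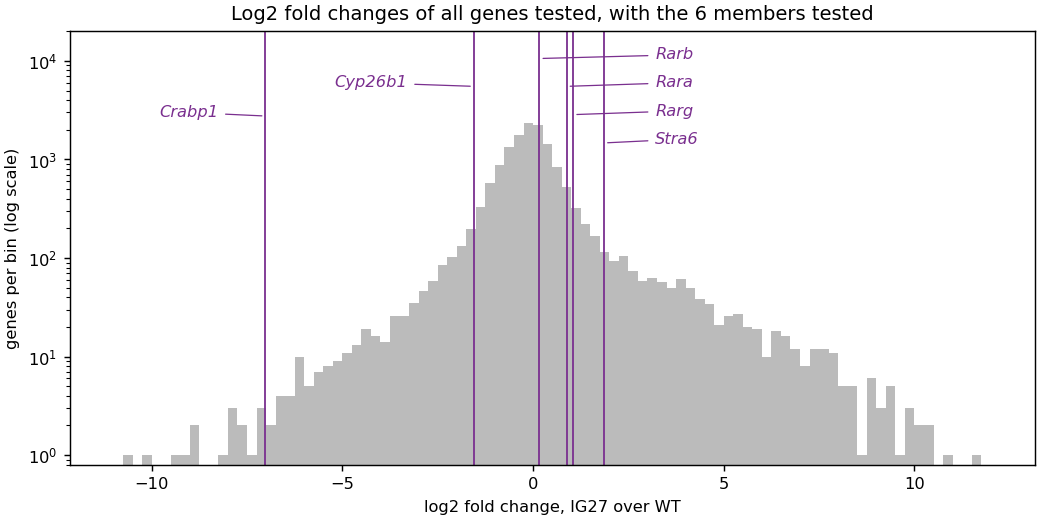
Histogram of the log2 fold change (IG27 over WT) of 14897 genes, with the number of genes per bin on a log axis and a line at each of the 6 genes tested. *Crabp1* lies in the thin lower tail (fitted value -7.01, a background value in IG27 cells), *Stra6* at 1.86 and *Cyp26b1* at -1.55 on the shoulders, and *Rarb* at 0.17 near the peak.

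Ranked by the size of the log2 fold change among all genes tested, *Stra6* was in the top 10.6% and *Cyp26b1* in the top 13.2%. No exact rank is given for *Crabp1*, whose difference is a bound. *Rarg* came at 22.1%, *Rara* at 27.7% and *Rarb* at 78.3%. The order of *Rarg* and *Rara* is not separated by their errors, since the 95% intervals of the log2 fold change, 0.91 to 1.2 and 0.73 to 1.03, overlap. *Crabp1* and *Stra6* are both on chromosome 9 and moved in opposite directions. The median log2 fold change of the tested genes on that chromosome was -0.64, and of the 10 tested genes nearest to each it was -0.48 around *Crabp1* and -0.65 around *Stra6*. For *Rarg* on chromosome 15 the medians were 0.30 over the chromosome and -0.14 over the 10 nearest genes. For *Rara* on chromosome 11 they were -0.12 and -0.41, and for *Cyp26b1* on chromosome 6 they were -0.21 and -0.65.

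The differences were also present within the row of the slide that held both groups, where WT replicate 2 stands alone against the 3 IG27 arrays and is assumed to vary as they do. There the log2 fold changes were 0.91 for *Rara* (adjusted p = 0.00193), 0.98 for *Rarg* (adjusted p = 0.00104), 1.76 for *Stra6* (adjusted p = 0.000204), -6.94 for *Crabp1* (fitted, adjusted p = 5.93e-06) and -1.45 for *Cyp26b1* (adjusted p = 0.000426). That of *Rarb* was 0.13 (adjusted p = 0.278). With the row as a block in the fit of all 6 arrays the log2 fold changes are the same by construction. The other row holds only WT arrays, which cannot inform the difference between the groups.

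**Figure D3:**
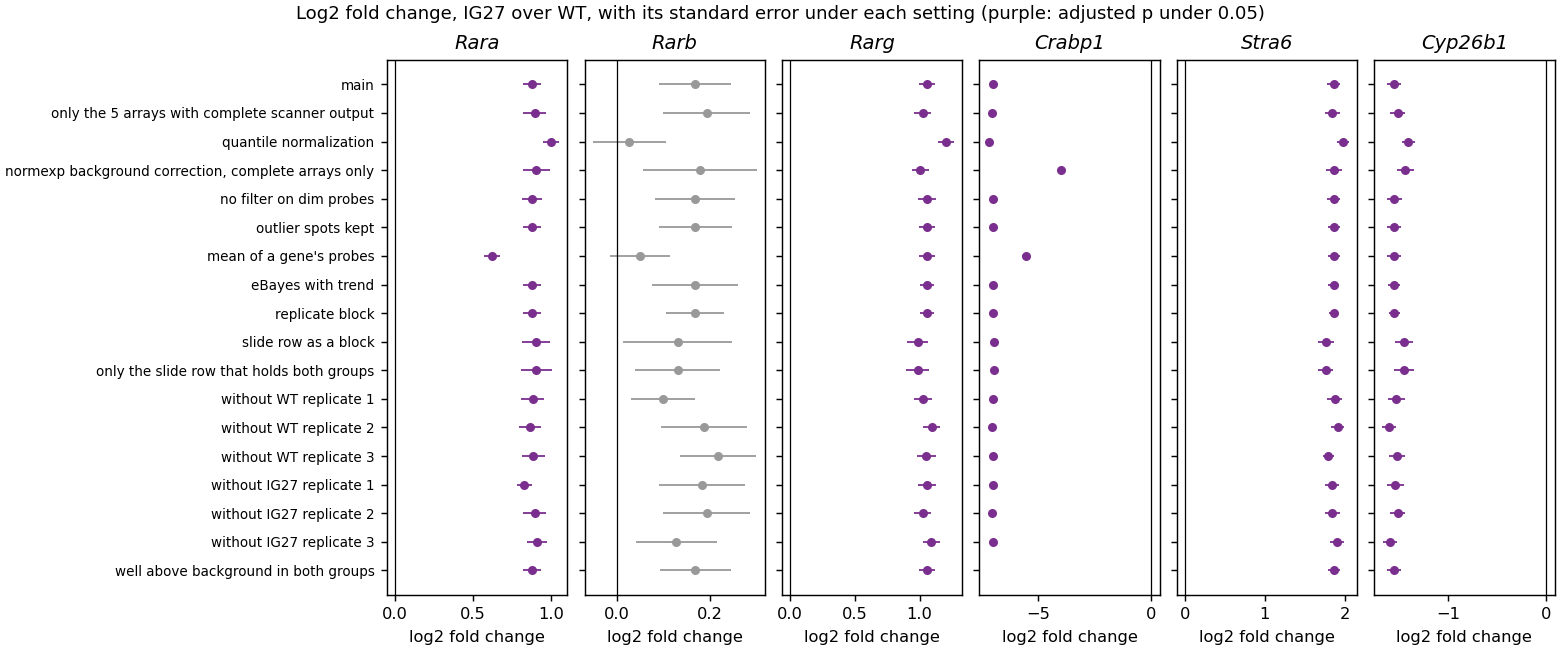
Log2 fold change (IG27 over WT) with its standard error for the 6 genes tested under each way of processing the arrays; purple points had an adjusted p under 0.05 and each panel has its own axis. *Rara*, *Rarg* and *Stra6* stay above 0, *Crabp1* and *Cyp26b1* stay below 0, and *Rarb* is without a call in every setting, while *Crabp1* has no value where only probes above background in both groups were kept.

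The other genes of the pathway were taken from 3 lists written from knowledge of the pathway, with earlier results of these data known. Their counts and medians therefore describe the lists and test nothing. The first holds 22 genes of retinoid supply and turnover, of which 14 were tested, 7 were higher, 5 lower and 2 not called (12 of 14, where 70.5% of all genes were called, 30.5% higher and 40.0% lower), with a median log2 fold change of 0.21 against -0.07 for all genes. Under the other ways of processing the arrays that tested the same 14 genes, 10 to 12 were called. The largest differences of this list were in enzymes between retinol and retinoic acid. ALDH1A enzymes oxidize retinaldehyde to retinoic acid, and *Aldh1a3* was at least 21.4-fold higher in IG27 cells, being at background in WT cells (-8.05, -7.85 and -8.20) and at -1.33, -1.37 and -1.36 in IG27 cells. *Aldh1a1* gave -5.38, -5.30 and -3.26 in WT and 0.38, 0.40 and 0.23 in IG27 cells. WT replicate 3 lay about 2 log2 units above the other WT arrays, yet below all IG27 arrays (log2 fold change 4.99, SE 0.57, adjusted p = 0.000337 in limma). The third enzyme, *Aldh1a2*, was not well above background in either group.

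*Dhrs3*, whose product reduces retinaldehyde back to retinol, had a brightest probe that was at background in WT cells, and by this probe IG27 cells were at least 62.5-fold higher (fitted log2 fold change 7.59). Its other, dimmer probe gave a log2 fold change of 1.01. *Rdh5*, a retinol dehydrogenase, was higher by 0.62 on the log2 scale (adjusted p = 0.00617), and its call was lost with the slide row as a block (adjusted p = 0.0778). The alcohol dehydrogenases *Adh7* and *Adh1*, which can oxidize retinol, were lower, with log2 fold changes of -2.06 and -1.95. *Bco1*, which splits β-carotene into retinaldehyde, and *Bco2*, which cleaves carotenoids at another bond, were at least 3.56-fold and 2.11-fold lower.

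**Figure D4:**
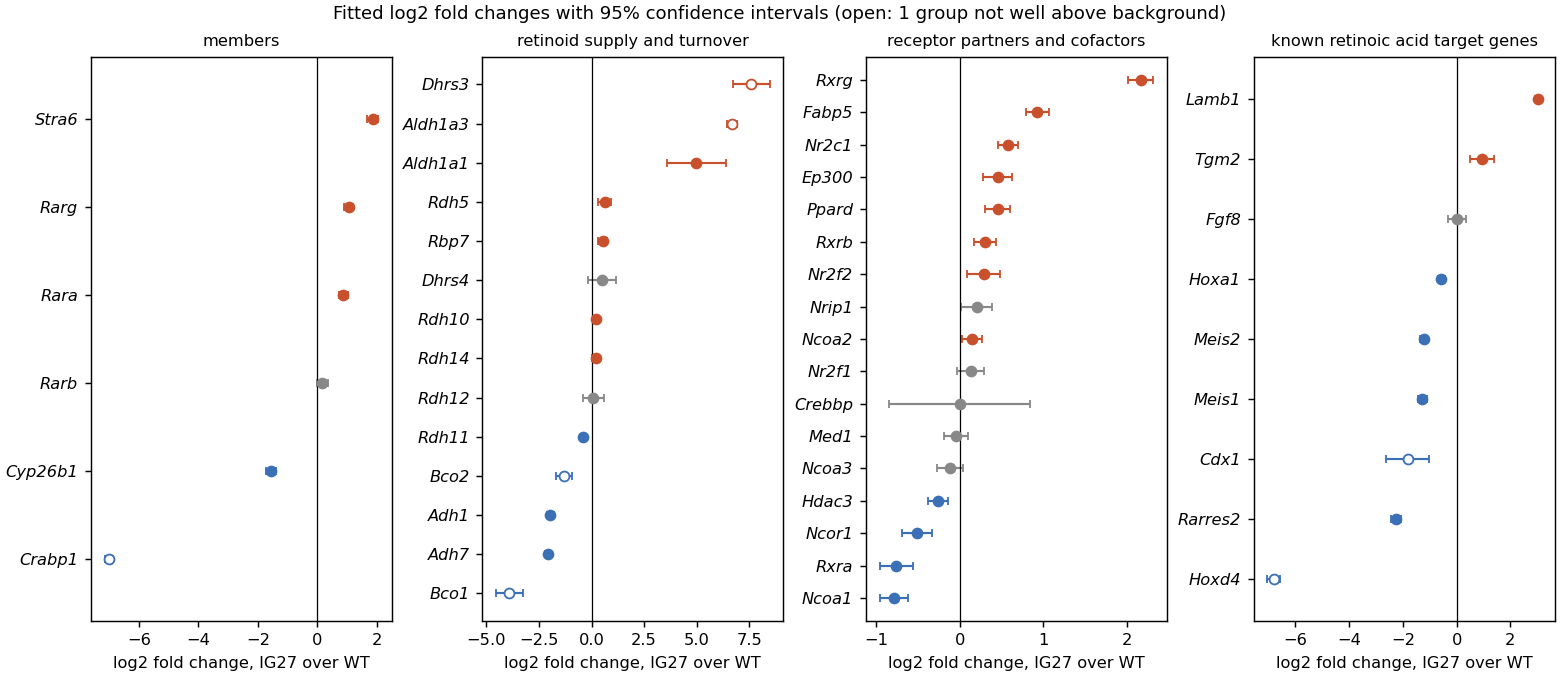
Fitted log2 fold changes (IG27 over WT) with 95% confidence intervals for the tested genes of the 4 groups except 1 receptor partner, 1 panel each with its own axis; red is higher, blue lower, grey not called, and open points had 1 group not well above background. *Dhrs3*, *Aldh1a3* and *Aldh1a1* stand apart on the high side of retinoid supply, and the receptor partners shown lie within 1 log2 unit of 0 except *Rxrg* at 2.17.

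The second list holds 18 partners and cofactors of the receptors, all tested, of which 8 were higher, 5 lower and 5 not called (median log2 fold change 0.14, against -0.07 for all genes). The 13 of 18 called are near the 70.5% of all genes. Under the other ways of processing the arrays 11 to 14 of the 18 were called, so some of these calls depend on the processing. The retinoid X receptors, which pair with the retinoic acid receptors on DNA, did not move together. *Rxrg* gave -1.27, -1.22 and -1.14 in WT and 1.03, 0.93 and 0.91 in IG27 cells, a 4.49-fold increase (log2 fold change 2.17, SE 0.06, adjusted p = 7.7e-07 in limma). *Rxrb* was slightly higher, at 3.58, 3.53 and 3.65 against 3.93, 3.90 and 3.85 (log2 fold change 0.30, adjusted p = 0.00259). *Rxra* was lower, at 4.78, 4.53 and 4.75 against 4.0, 3.91 and 3.88 (log2 fold change -0.76, adjusted p = 0.000276), with a log2 fold change of -0.27 by its second probe.

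The other genes of this list with the largest log2 fold changes were *Fabp5* (0.93), a fatty acid carrier that can hand retinoic acid to PPARδ, the orphan receptor *Nr2c1* (0.57) and the acetyltransferase *Ep300* (0.46) on the high side. On the low side were *Ncoa1* (-0.79), a coactivator, and *Ncor1* (-0.51), a corepressor. The 5 probes of *Ncor1* ranged from -0.51 to 0.01 in log2 fold change.

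The third list holds 14 genes known to respond to retinoic acid in other cells, of which 9 were tested, 2 were higher, 6 lower and 1 not called (median log2 fold change -1.22, against -0.07 for all genes). Of all genes 70.5% were called, 30.5% higher and 40.0% lower. The targets *Rarb* and *Cyp26a1* are counted among the members and not here. The list is not complete, and its median depends on which genes were put in it. *Hoxd4*, a homeobox gene of the hindbrain, was at least 22.7-fold lower in IG27 cells, at -0.76, -0.86 and -0.90 in WT and at background in IG27 cells. *Rarres2*, which encodes the chemoattractant chemerin, was lower with 4.99, 5.13 and 5.03 in WT and 2.89, 2.83 and 2.65 in IG27 cells (log2 fold change -2.26, adjusted p = 1.83e-06 in limma). The homeobox gene *Meis1* was lower by a log2 fold change of -1.28, and *Cdx1*, a regulator of *Hox* genes, was at least 1.46-fold lower. *Lamb1*, a laminin chain, was higher with 1.92, 1.96 and 1.90 in WT and 4.96, 4.94 and 4.96 in IG27 cells (log2 fold change 3.03, adjusted p = 9.87e-08 in limma). *Tgm2*, a transglutaminase, was higher by 0.93. *Fgf8*, a growth factor gene, gave a log2 difference of 0.00 (95% CI -0.33 to 0.34). No promoter of a gene in the 3 lists held a DR5.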

How the data were processed

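Total RNA of 3 WT and 3 IG27 samples was labeled with Cy3 and hybridized by the authors to 1 single-color array each. The deposited intensity is the processed signal of Feature Extraction on a linear scale. The submitters' processing notes give version 9.1 of this software and the file headers version 10.7.3.1. The deposited value table exchanges WT replicate 2 with WT replicate 3 (56305 of 56305 single-spot probes equal to the other's scanner output, relative tolerance 1e-04), and the scanner labels were used. The 255 single-spot probes in the scanner output of IG27 replicate 2 equaled its table column.

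The processed signal was log2-transformed and centered on the 75th percentile of its array, without outlier-flagged spots, and spots of a probe were averaged. RefSeq accessions named 32994 of 56605 probes through a table of the GRCm38.p6 assembly. A probe was kept where it was well above background on every flagged array of at least 1 group, and the brightest kept probe of each gene was tested two-sided by lmFit and eBayes of limma 3.58.1 under R 4.3.3, with Benjamini-Hochberg adjustment over all genes and a threshold of 0.05. Probes were also fitted singly. The steps were tested on simulated data. The number of arrays limits the precision. Named were all members and, from each list, the 4 largest called differences in each direction, the *Aldh1a* and *Rxr* genes, and *Fgf8*, the last chosen after its values were seen. The values of 1 receptor partner that this rule names are not reported here. The members and lists were chosen with earlier results of these data known.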

Additional observations from a re-analysis of the deposited data

How the results depend on the processing

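Each result was recomputed on the 5 arrays whose scanner output is whole, after quantile normalization, after normexp correction (offset 50, on median signals), with every dim probe kept or with only probes above background in both groups, with flagged spots included, with probes averaged per gene, with a trend in eBayes, with a replicate block, with the slide row as a block, within the slide row that held both groups, and without each array in turn. All 6 genes tested kept their direction and their side of the threshold in each setting that tested them. These settings are not all distinct. The 5 whole arrays are those left without IG27 replicate 2, and both slide-row settings share the same log2 fold changes. The trend and the replicate block leave the log2 fold change as it was and can alter only its error. The log2 fold change ranged from 0.62 to 1.0 for *Rara*, from 0.03 to 0.22 for *Rarb* (adjusted p 0.065 to 0.78), from 0.98 to 1.2 for *Rarg*, from 1.76 to 1.98 for *Stra6* and from -1.60 to -1.41 for *Cyp26b1* over 17 settings, and from -7.17 to -4.01 for *Crabp1* over 16, as the stricter filter drops this gene. The lowest value of *Rara* was with the mean of its 2 probes, and the smallest of *Crabp1* was with normexp correction, whose offset raises values at background. Without a filter the median log2 fold change of all genes was 0.12 in place of -0.07.

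Same-numbered arrays had correlations of 0.0117, 0.0396 and 0.0762 in their deviations from the group means. Between arrays of different numbers the correlations ran from -0.0941 to 0.059. All were small, and whether the replicate numbers pair the samples was not tested further. With the replicate block 5 of the 6 genes tested were called as before, with 11 genes of retinoid supply, 13 receptor partners and 8 target genes, and 10308 of all genes against 10500. Over all settings between 8938 and 10820 genes were called at the adjusted threshold, and 10854 at an unadjusted p of at most 0.05, where 5 of the 6 genes were again called. Only genes above background in both groups left 4 of 5 called, where 9576 of 13532 of all genes were called. Without a filter on dim probes 6 of 8 were called, where 10225 of 22911 of all genes were called. The added one was *Cyp26a1* (adjusted p = 0.0367 in limma), whose signals were not well above background in either group. *Rbp4* was not called (adjusted p = 0.133 in limma).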
